A study of Homo sapiens with 18 samples.

Results

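The comparison described here is that of A549 cells with and without the atypical protein kinase C isoforms silenced, 8 h after the start of a TGFβ exposure. A549 is an established human lung adenocarcinoma line. The comparison takes in 6 of the 18 arrays of the series, chosen by their labels: 3 of cells transfected with siRNA against PKCiota and PKCzeta (siPKCiz) and 3 of cells transfected with a control siRNA (siControl). In all 6 cultures serum starvation was followed by 1 h with 250 pM TGFβ, a wash, and another 7 h in medium holding 0.2% serum, so both groups had met the ligand and they differed by the siRNA. The line had been grown in F-12K medium with 10% serum. The other 12 arrays are the same arms without ligand, for which no time is labelled, and at 24 h, again 3 biological replicates per group. The labels give no siRNA sequence and do not say whether 1 or several siRNAs were used per isoform, and a single cell line stands for the tissue. Which cultures shared a transfection or a day is also not labelled, so the p-values measure the spread between the labelled biological replicates.

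Atypical PKCs are serine/threonine kinases that, unlike the classical and the other isoforms of the family, need neither calcium nor diacylglycerol for activity. They work in a complex with the scaffold PAR3 (PARD3), the adaptor PAR6 (PARD6A, PARD6B, PARD6G) and the small GTPase CDC42, which sets apical polarity and tight junctions in epithelia. TGFβ binds the type II receptor TGFBR2, which activates the type I receptor TGFBR1, and the receptors signal through SMAD2 and SMAD3 and also through PAR6, which the type II receptor phosphorylates. In epithelial cells, A549 among them, TGFβ drives an epithelial to mesenchymal transition with loss of junction proteins and gain of matrix and cytoskeletal genes.

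The values were RMA intensities on a linear scale, as deposited by the authors, from 21.6 to 32402 over the 6 arrays, with array medians between 156.2 and 160.2. Every difference below is siPKCiz minus siControl on the log2 scale with its standard error from limma, and a gene is said to have risen or fallen where its Benjamini-Hochberg adjusted p over 18377 genes was under 0.05. Arrays have no read depth, and 3 arrays per group limit the precision, with a median standard error of 0.0996 log2 units. Replicate values are given in the order 1, 2, 3. Where values are given by replicate, the siPKCiz array of a number is set beside the siControl array of that number, although the arrays of a number did not meet the level set for pairing.

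PRKCI, which encodes PKCiota, read 2804, 2818 and 2545 in siControl and 583, 621 and 554 in siPKCiz. The groups lay far apart in every replicate, and siPKCiz was at 20.8%, 22.0% and 21.8% of siControl, a difference of -2.22 ± 0.091 log2 units (SE, n = 3 per group, 4.65-fold lower, limma adjusted p = 4.39e-11). PRKCZ, which encodes PKCzeta, read 309, 410.2 and 410.2 in siControl and 254, 153 and 153 in siPKCiz. The groups again did not overlap, but replicate 1 stood apart in both of them, with the lowest control and the highest silenced value. PRKCZ was thus at 82.3% of siControl in replicate 1 and at 37.2% and 37.2% in replicates 2 and 3, with a fitted difference of -1.04 ± 0.24 (2.06-fold lower, adjusted p = 0.018). Its silenced values in replicates 2 and 3 lay just under the median of all probe sets on the array. Without replicate 1 the PRKCZ difference was -1.43, still called, and its call was lost without replicate 2 and without replicate 3, whereas that of PRKCI held in all 3 of these fits.

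**Figure D1:**
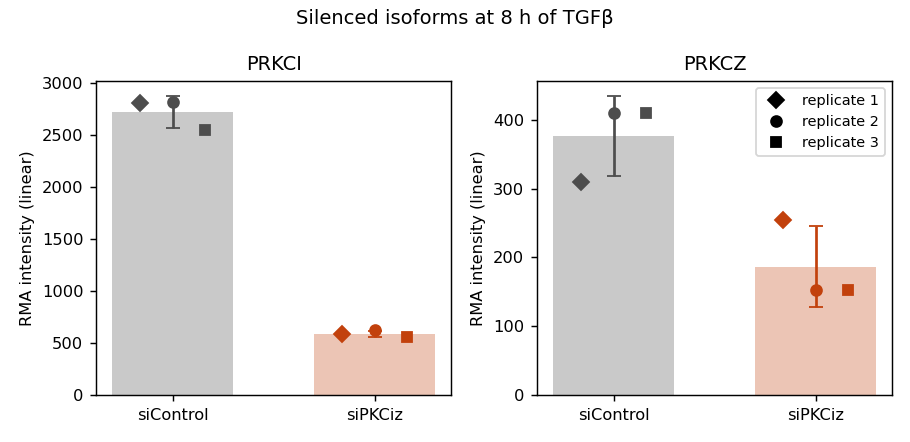
RMA intensity on a linear axis starting at 0 for PRKCI (left) and PRKCZ (right) on the 6 arrays at 8 h of TGFβ, with bars for the mean of 3 arrays, error bars for the SD and a symbol for each replicate. PRKCI was lower in siPKCiz to the same degree in each replicate, and PRKCZ differed much less in replicate 1 than in replicates 2 and 3.

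Of 11 other PKC isoforms and related kinases, 2 rose and 1 fell, against 5.41% of all genes called (3.52% higher, 1.90% lower). PRKCQ, a PKC isoform best known from T cells, read 311, 259 and 226 in siControl and 387, 359 and 436 in siPKCiz and rose by 0.58 ± 0.10 log2 units (1.49-fold, adjusted p = 0.00346). Its groups did not overlap, and the difference was smallest in replicate 1 (0.31, 0.47 and 0.94 by replicate). PRKD2, a protein kinase D isoform, rose by 0.32 ± 0.093 log2 units (1.25-fold, adjusted p = 0.0498), by replicate 0.24, 0.40 and 0.33, and PRKD3, another, fell by 0.36 log2 units, by replicate -0.54, -0.18 and -0.35. PRKD3 was no longer called without replicate 1, and none of the 3 calls held without replicate 2 or without replicate 3. The median difference of the list was 0.069, beside -0.0077 for all genes.

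The cells read as A549 at the level of the fixed markers, with exceptions. The keratins KRT8 and KRT18 and the metabolic enzymes AKR1B10 and ALDH1A1 were bright, while NKX2-1, SFTPB and SFTPC, markers of lung lineage and surfactant, lay under the array median on all 6 arrays. None of the 12 markers was called, although their summed intensity ran from 40259 to 44111 in siControl and from 46535 to 49138 in siPKCiz. Of the markers of other cell types, 7 of 8 for leukocytes, 7 of 7 for endothelium and 4 of 8 for fibroblasts were under the array median on all 6 arrays. Summed intensity was 1487 to 1677 in siControl and 1431 to 1514 in siPKCiz for leukocyte markers, 504 to 525 and 474 to 478 for endothelial markers, and 1570 to 1755 and 1499.9 to 1660.1 for fibroblast markers. Of the 8 fibroblast markers 1 rose and 1 fell, and of the 7 endothelial markers 1 fell, beside 3.52% of all genes higher and 1.90% lower. No leukocyte marker was called. LUM, a matrix proteoglycan, rose by 0.58 ± 0.14, by replicate 0.13, 0.46 and 1.15. THY1, a surface glycoprotein, and the endothelial receptor gene TEK fell by 0.59 and 0.27. By replicate TEK differed by -0.34, -0.24 and -0.22, and it was under the array median on every array and not called without replicate 1. None of these 3 calls held without replicate 2 or without replicate 3. Whether these levels had a part in the other results was not tested, and in RNA from whole cultures fewer cells of a kind and less RNA per cell cannot be told apart.

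Replicate 1 differed from replicates 2 and 3 in much of this comparison, and its values are therefore given beside the others for the called genes described. Across genes, the siRNA differences of replicates 2 and 3 correlated at r = 0.77, those of replicates 1 and 2 at 0.14 and those of replicates 1 and 3 at 0.11, as a description over genes that share arrays. In replicate 1, 55 genes differed by 1 log2 unit or more, against 113 and 118 in the others. The distance was in both arms: within siControl the arrays correlated at 0.9933 and 0.9936 with replicate 1 and at 0.9962 between replicates 2 and 3, and within siPKCiz at 0.9939, 0.9940 and 0.9973. No label separates the replicates beyond their number, and what set replicate 1 apart was not tested.

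**Figure D2:**
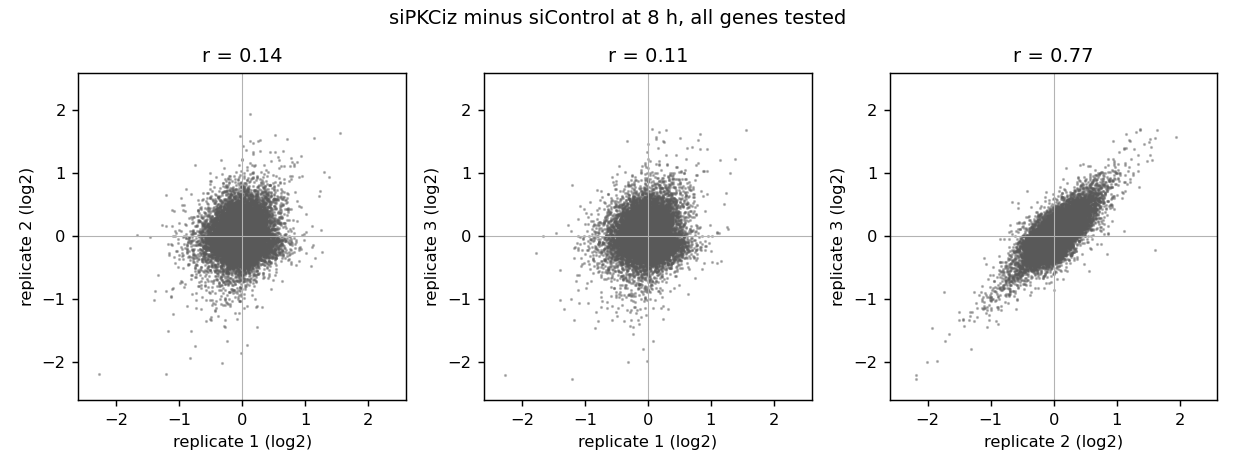
Difference of siPKCiz minus siControl at 8 h (log2) for all 18377 genes, replicate against replicate, 1 point per gene. Genes lie along the diagonal for replicates 2 and 3 (r = 0.77) and form a round cloud where replicate 1 is on an axis (r = 0.14 and 0.11).

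In all, 995 of 18377 genes were called (5.41%), 646 higher (3.52%) and 349 lower (1.90%), of which 19 and 17 changed by 2-fold or more. All 3 replicates had the same sign in 982 of the 995, and the groups did not overlap in 632 of those higher and 347 of those lower, beside 24.1% of all genes whose groups did not overlap. A call made from these same arrays favours both, so neither measures agreement between replicates. The share of all genes with the same sign in all replicates was not counted. The count rested on which replicates entered: without replicate 1 it was 3486 (19.0% of all genes, 12.2% higher and 6.72% lower), 914 of them among the 995, without replicate 2 it was 35, and without replicate 3 it was 24. Single arrays moved it as well, to 371 and 379 without siControl replicates 2 and 3 and to 366 and 363 without siPKCiz replicates 2 and 3. Of the 3486 genes called from replicates 2 and 3, replicate 1 had the same sign in 2032 (58.3%), with a median change of 0.050 in the called direction beside 0.41 in the fit. For the 35 and the 24, the replicate left out had the same sign in every gene, with medians of 0.74 and 0.95.

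The 12 highest and 12 lowest genes were taken from called genes whose groups did not overlap. Their separation and shared sign were thus conditions of the choice and give no further support. CNN2, an actin-binding calponin, rose most. It read 831, 732 and 690.1 in siControl and 2437, 2291 and 2230.4 in siPKCiz, with the groups far apart in all replicates, and rose by 1.63 ± 0.11 log2 units (3.10-fold, adjusted p = 1.33e-07). HCN2, a cation channel gated by hyperpolarization, read 215, 156 and 189 in siControl and 476, 461 and 441 in siPKCiz and rose by 1.31 ± 0.10 log2 units (2.48-fold, adjusted p = 7.58e-07). FOXN3, a forkhead transcriptional repressor, read 661, 736 and 659.5 in siControl and 1727, 1420.3 and 1539 in siPKCiz and rose by 1.19 ± 0.079 log2 units (2.27-fold, adjusted p = 1.12e-07). The lowest silenced value of each of these 3 genes was well above the highest control value, and the differences were of like size in replicate 1. The groups also did not overlap for CTSH, the lysosomal protease cathepsin H, which read 273, 269.8 and 286 in siControl and 671, 551 and 573 in siPKCiz (1.11 ± 0.097), and TMCC1, a membrane protein of the endoplasmic reticulum, which read 604, 604 and 464 in siControl and 1071, 1309 and 1217 in siPKCiz (1.11 ± 0.098), the latter with its smallest difference in replicate 1 (0.82, 1.12 and 1.39). These 5 were called in each of the fits that left out a replicate number, and the other 7 of the 12 highest were called only with replicates 2 and 3 both present.

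Those 7 were smaller in replicate 1. ARHGAP29, a GTPase-activating protein for RhoA, read 664, 625 and 495 in siControl and 951, 1914 and 1464 in siPKCiz and differed by 0.52, 1.61 and 1.57 by replicate (1.23 ± 0.28, adjusted p = 0.0164). MUC13, a membrane mucin, read 216, 227 and 239 in siControl and 353, 660.3 and 638 in siPKCiz, by replicate 0.71, 1.54 and 1.42. The transcription factor NFIA read 895, 773 and 791 in siControl and 1714, 1867 and 2060.1 in siPKCiz, by replicate 0.94, 1.27 and 1.38. In all 3 the silenced array of replicate 1 was the lowest of its group. In all, 3 secreted proteins of the fibrinogen family were among the highest: FGA and FGB, the alpha and beta chains of fibrinogen, and FGL1, a fibrinogen-like protein. FGA read 308, 240.0 and 213 in siControl and 374, 617 and 683 in siPKCiz and rose by 1.11 ± 0.30 log2 units (2.16-fold, adjusted p = 0.038). FGB read 696, 486 and 475 in siControl and 827, 1388 and 1341 in siPKCiz and rose by 1.09 ± 0.28 log2 units (2.12-fold, adjusted p = 0.0295). FGL1 read 282, 219 and 247 in siControl and 489, 501 and 716 in siPKCiz and rose by 1.17 ± 0.18 log2 units (2.25-fold, adjusted p = 0.00133). For FGA and FGB the replicate 1 arrays were closest, at 0.28, 1.36 and 1.68 and 0.25, 1.51 and 1.498 by replicate. BCAS1, the remaining gene, rose by 1.20 ± 0.22, by replicate 0.82, 1.15 and 1.63.

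Among the 12 lowest, PRKCI and SLC4A8, a sodium-driven chloride bicarbonate exchanger, were called in every fit that left out a replicate number. SLC4A8 read 323, 266 and 239.6 in siControl and 123, 132 and 119 in siPKCiz and was lower by 2.20-fold (-1.14 ± 0.12, adjusted p = 3.56e-05), with the largest difference in replicate 1. FNIP2, a partner of the tumour suppressor folliculin, read 583, 585 and 609 in siControl and 272, 249 and 292 in siPKCiz, 2.19-fold lower in siPKCiz (-1.13 ± 0.16, adjusted p = 4.44e-04), by about as much in each replicate (-1.10, -1.23 and -1.06). FNIP2 and the other 9 were not called without replicate 2 or without replicate 3.

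ODAPH, a phosphoprotein of tooth enamel, read 349, 384 and 443 in siControl and 150.4, 84.5 and 92.7 in siPKCiz and differed by -1.88 ± 0.46 log2 units (3.69-fold lower, adjusted p = 0.0228). TMEM88, a membrane protein that inhibits Wnt signalling, read 833, 938 and 770.4 in siControl and 468, 245 and 281 in siPKCiz and differed by -1.41 ± 0.35 log2 units (2.66-fold lower, adjusted p = 0.026). IL1A, the inflammatory cytokine interleukin-1 alpha, read 412, 349.8 and 385 in siControl and 182, 124 and 153 in siPKCiz and differed by -1.34 ± 0.35 log2 units (2.53-fold lower, adjusted p = 0.0312). As genes chosen for groups that did not overlap, all 3 were lower in every replicate. ODAPH and TMEM88 were lower by less in replicate 1 (-1.21, -2.18 and -2.26 and -0.83, -1.94 and -1.46), and IL1A about equally (-1.18, -1.499 and -1.34). KDM7A, a histone demethylase, differed by -1.08 ± 0.25, by replicate -0.58, -1.34 and -1.33, and the protease inhibitor CST1 by -1.12 ± 0.32, by replicate -0.74, -1.74 and -0.88. Both differed least in replicate 1.

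LPCAT3, CACNA2D1 and EXOC5 had another pattern. LPCAT3, an acyltransferase of membrane phospholipids, read 5496, 10406 and 9888 in siControl and 5445, 2883 and 2496 in siPKCiz. In siControl its replicate 1 array was far below the others and in siPKCiz far above them, so that it differed by -0.013, -1.85 and -1.99 by replicate (-1.28 ± 0.31, adjusted p = 0.0238). CACNA2D1, an auxiliary subunit of voltage-gated calcium channels, read 1776, 2933 and 3016 in siControl and 1509.9, 924 and 1034 in siPKCiz, by replicate -0.23, -1.67 and -1.54. EXOC5, a subunit of the exocyst that tethers secretory vesicles, read 2401, 4213 and 4133 in siControl and 2268, 1699 and 1200.0 in siPKCiz, by replicate -0.082, -1.31 and -1.78. The groups of these genes were separated only by the gap between the replicate 1 arrays. The other probe sets assigned to EXOC5 differed by -0.090 ± 0.12 and -0.70 ± 0.26. The first difference is smaller than its standard error, so the probe sets disagree on whether EXOC5 changed.

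**Figure D3:**
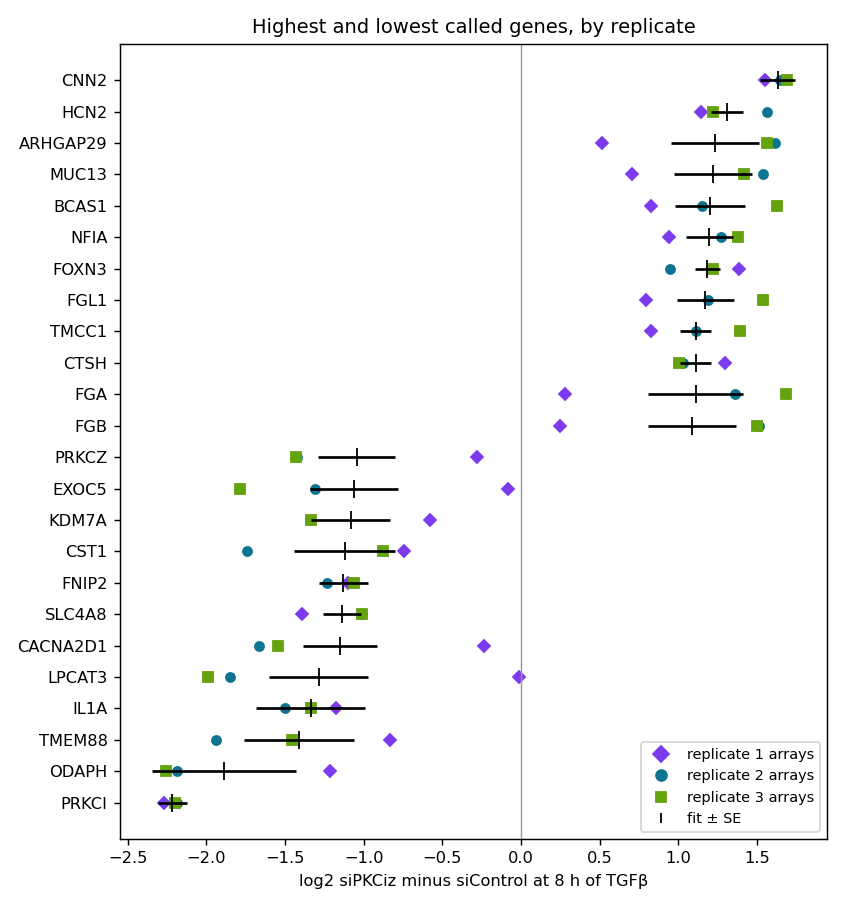
Log2 difference of siPKCiz minus siControl at 8 h for the 12 highest and 12 lowest called genes, with a symbol for each replicate, a bar for the fitted value and a line for its SE. CNN2, HCN2, FOXN3, CTSH, SLC4A8, FNIP2 and PRKCI have their 3 symbols close together, and LPCAT3, EXOC5, CACNA2D1, PRKCZ, FGA and FGB have replicate 1 near 0.

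In all, 18 genes were called whichever replicate number was left out, a choice made after the data were seen. Higher were CNN2, HCN2, FOXN3, TMCC1, CTSH, DCP1A, WDTC1, INTS9, STX8, NFIC, ABLIM1, DIPK2A and RREB1, and lower were PRKCI, SLC4A8, NCR3LG1, AMPD3 and CFAP206. DCP1A, an activator of mRNA decapping, read 715, 636 and 683 in siControl and 1308, 1447 and 1405 in siPKCiz and rose by 1.03 ± 0.093. STX8, a SNARE protein of endosomes, read 959, 812 and 877 in siControl and 1521, 1469 and 1515 in siPKCiz and rose by 0.77 ± 0.083. NCR3LG1, which encodes B7-H6, a ligand of a natural killer cell receptor, read 1901, 1429 and 1795 in siControl and 752, 938 and 809 in siPKCiz and differed by -1.03 ± 0.099. In each of these 3 the groups were apart in every replicate, replicate 1 included. AMPD3, an AMP deaminase, read 519, 458 and 495 in siControl and 262, 275 and 279 in siPKCiz and differed by -0.85 ± 0.095, and NFIC, of the same transcription factor family as NFIA, rose by 0.70 ± 0.066, evenly by replicate (0.67, 0.70 and 0.74).

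The partners of atypical PKC and other polarity proteins lay mostly above 0: 4 of 22 rose, none fell, and 20 had a positive difference, with a median of 0.20 (-0.0077 over all genes, of which 3.52% rose). ECT2, which binds PKCiota and PAR6, read 3263, 2950.0 and 2668 in siControl and 3951, 5204 and 4282 in siPKCiz and rose by 0.59 ± 0.13 log2 units (1.51-fold, adjusted p = 0.013). PARD6A, the PAR6 adaptor, read 105, 102 and 112 in siControl and 133, 166 and 176 in siPKCiz, near the array median, and rose by 0.57 ± 0.14 log2 units (1.48-fold, adjusted p = 0.0204). CDC42 read 616, 560.3 and 551 in siControl and 747, 689 and 758 in siPKCiz and rose by 0.35 ± 0.082 log2 units (1.27-fold, adjusted p = 0.02). In these 3 genes no silenced array reached down to a control array, and ECT2 and PARD6A differed least in replicate 1 (0.28, 0.82 and 0.68 and 0.34, 0.71 and 0.65). PARD3, the PAR3 scaffold, read 1178, 1154 and 1168 in siControl and 1406, 1440.2 and 1502 in siPKCiz and rose by 0.31 ± 0.064 log2 units (1.24-fold, adjusted p = 0.00853), with the 3 replicates alike (0.26, 0.32 and 0.36). PARD6B and PARD6G, the other PAR6 genes, differed by 0.12 ± 0.086 and 0.27 ± 0.12 and SQSTM1, which encodes the PKC adaptor p62, by 0.11 ± 0.083, none of them called. The median of the list was 0.066 in replicate 1 and 0.26 and 0.24 in replicates 2 and 3. With quantile normalization ECT2, CDC42 and PARD3 differed by less, at 0.54, 0.28 and 0.25, and PARD6A by 0.61, all still called. The list median and the count above 0 were not taken under that normalization, so their dependence on scaling was not tested. Without replicate 1, 10 rose, beside 12.2% of all genes, these 4 among them, and none of the 4 calls held without replicate 2 or without replicate 3.

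Of 30 receptors, SMADs and regulators of TGFβ signalling, 1 rose and 3 fell, beside 3.52% and 1.90% of all genes. TGFBR2, the type II TGFβ receptor, read 2001, 2252 and 2744 in siControl and 1619, 1557 and 1665 in siPKCiz and was lower by 1.43-fold (-0.52 ± 0.11, adjusted p = 0.0129). SMURF2, an E3 ubiquitin ligase that targets SMADs and the receptor complex, read 5649.9, 5799 and 5603 in siControl and 4299.6, 4016 and 3623 in siPKCiz and differed by -0.52 ± 0.11. ACVR2B, a type II activin receptor, read 175, 148 and 175 in siControl and 117, 108 and 111 in siPKCiz and differed by -0.56 ± 0.093 log2 units (1.48-fold lower, adjusted p = 0.00199). All silenced arrays of the 3 genes were below all control arrays. ACVR1, a type I receptor for activin and BMP, read 972, 907 and 910.5 in siControl and 1171, 1154 and 1152 in siPKCiz and rose by 0.32 ± 0.074 log2 units (1.25-fold, adjusted p = 0.0178), by replicate 0.27, 0.35 and 0.34. TGFBR1, the type I TGFβ receptor, did not pass (-0.46 ± 0.15, adjusted p = 0.0882). BMPR2, the type II BMP receptor, read 6339.7, 8890.2 and 8383 in siControl and 6476, 4517 and 4209 in siPKCiz, so that replicate 1 was level and replicates 2 and 3 lower (-0.65 ± 0.19, adjusted p = 0.0505). The signal-carrying SMAD2, SMAD3 and SMAD4 differed by 0.091, 0.036 and -0.036, and the inhibitory SMAD7 by -0.18, none called. Without replicate 1 the counts were 5 higher and 8 lower, beside 12.2% and 6.72% of all genes, with the 4 called genes among them, and none of the 4 held without replicate 2 or without replicate 3. The median of the list was -0.033.

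Of 33 early TGFβ target genes 1 rose and 3 fell (3.52% and 1.90% of all genes), and 28 lay below 0 (9504 of all 18377), with a median of -0.18 beside -0.0077 over all genes. SPHK1, the kinase that makes sphingosine 1-phosphate, read 723, 716 and 677 in siControl and 462, 324 and 307 in siPKCiz and differed by -0.98 ± 0.21 log2 units (1.97-fold lower, adjusted p = 0.0131). CCN1, a matricellular protein, read 1746, 1503 and 1636 in siControl and 1048, 802 and 752 in siPKCiz and differed by -0.92 ± 0.22 log2 units (1.89-fold lower, adjusted p = 0.0198). IL11, a cytokine of the interleukin-6 family, read 2631, 2334 and 2425 in siControl and 1632, 1352 and 1638 in siPKCiz and differed by -0.68 ± 0.13 log2 units (1.60-fold lower, adjusted p = 0.00476). No silenced array of these 3 genes reached the lowest control array, in replicate 1 as in the others. NEDD9, a scaffold of focal adhesions, rose slightly and evenly, with 997, 1024 and 1033 in siControl and 1201, 1223 and 1261 in siPKCiz (0.27 ± 0.065, by replicate 0.27, 0.26 and 0.29).

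The other 29 early targets did not pass. VEGFA, the endothelial growth factor, read 2834, 2848 and 3327 in siControl and 2035, 1344 and 1519 in siPKCiz and differed by -0.90 ± 0.26 (adjusted p = 0.0506), with no overlap of the groups. ANGPTL4 and PDGFB, both secreted factors, differed by -0.19, -0.89 and -0.78 and by -0.20, -0.88 and -1.12 by replicate, smallest in replicate 1. CCN2, SKIL and GADD45B were above 0 in replicate 1 and below 0 in replicates 2 and 3 (0.089, -0.56 and -0.65, 0.17, -0.32 and -0.39 and 0.13, -0.61 and -0.50). By replicate the median of the list was -0.078, -0.24 and -0.19. Without replicate 1, 12 fell and 2 rose (6.72% and 12.2% of all genes), and none of the 4 called genes held without replicate 2 or without replicate 3.

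The same genes may be read against the ligand response, 8 h against untreated, whose control arm shares the siControl arrays at 8 h with the comparison above, and whose silenced arm shares the siPKCiz arrays. Values are therefore set side by side only. The untreated arrays have no labelled time or low-serum incubation, so effects of ligand, time and medium cannot be told apart in this response. Of the 33 early targets, 25 rose with TGFβ in siControl and none fell (5.17% and 6.18% of all genes), and 21 rose and 1 fell in siPKCiz (3.13% and 3.35%, 6.48% in either direction), and the medians of the list were 0.95 and 0.62. SPHK1 changed with TGFβ by 1.69 ± 0.21 in siControl and by 0.85 ± 0.21 in siPKCiz, CCN1 by 1.45 ± 0.22 and 0.62 ± 0.22, and IL11 by 1.28 ± 0.13 and 1.39 ± 0.13. All 3 rose with the ligand in siControl, and SPHK1 and IL11 did so in siPKCiz too. For ODAPH the ligand changes were 2.69 ± 0.46 and 0.91 ± 0.46, for TMEM88 2.28 ± 0.35 and 1.06 ± 0.35, and for IL1A 1.94 ± 0.35 and 0.92 ± 0.35. Each of these 3 was called higher in the control arm and not in the silenced arm, while the difference between the arms, tested further below, was not called for any gene with all arrays. Among the highest genes, FGA changed by -1.77 ± 0.30 and -1.84 ± 0.30 and FGB by -1.29 ± 0.28 and -1.33 ± 0.28, falls in both arms, while for ARHGAP29 the values were -1.20 ± 0.28 and -0.34 ± 0.28, the second not called. Over all calls, 209 of the 646 genes higher in siPKCiz fell with TGFβ in siControl and 15 rose, and of the 349 lower genes 105 rose and 14 fell, counts that the shared siControl arrays affect.

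Promoter sequence is shown for 3 genes lower in siPKCiz, chosen because their promoters hold the pattern TGANTCA, which includes the consensus site of AP-1 transcription factors. The 120 bases before the start are given 5′ to 3′ on the gene's strand, from RefSeq on GRCh38.p14, with the pattern in capitals: ODAPH at chr4:75555946-75556065 on the plus strand, and IL1A at chr2:112784494-112784613 and IL11 at chr19:55370464-55370583 on the minus strand. For IL1A, which has 2 listed starts, the window before the more upstream start is given. The window before its other start and a window of SPHK1, also lower in siPKCiz, hold the pattern too and are not shown.
ODAPH: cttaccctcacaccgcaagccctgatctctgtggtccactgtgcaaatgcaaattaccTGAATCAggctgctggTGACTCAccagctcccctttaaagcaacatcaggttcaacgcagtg
IL1A: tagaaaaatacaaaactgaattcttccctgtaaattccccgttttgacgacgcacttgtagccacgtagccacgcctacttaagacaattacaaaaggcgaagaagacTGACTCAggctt
IL11: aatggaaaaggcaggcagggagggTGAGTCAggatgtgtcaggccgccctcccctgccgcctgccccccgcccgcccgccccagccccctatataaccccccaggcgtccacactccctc

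The pattern was picked after other motifs had been looked for in the promoters of genes chosen for their change. In the 250 bases before a start, on either strand (the pattern reads the same on both), it was found in 1004 of 14210 tested genes with a listed promoter (7.07%), in 33 of 523 called higher (6.31%) and in 21 of 266 called lower (7.89%). It was thus about as frequent among called genes as among all genes. Of the 12 highest and the 12 lowest genes, 10 each had a listed promoter, and 2 of each 10 held the pattern, MUC13 and TMCC1 among the highest and ODAPH and IL1A among the lowest.

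Genes of the epithelial to mesenchymal transition made up 3 lists, to be read against 5.41% of all genes called. None of 14 transcription factors of the transition was called, with 7 above and 7 below 0 and 3 of them at an unadjusted p under 0.05. The largest difference, that of SOX9, was 0.31 ± 0.098 (adjusted p = 0.0775). SNAI1 and SNAI2, repressors of E-cadherin, differed by -0.17 ± 0.18 and -0.16 ± 0.18, and ZEB1, another repressor of epithelial genes, differed by -0.28 ± 0.093 and was not called, but was called lower without replicate 1. Of 18 mesenchymal markers 1 fell, THY1, which read 389, 319 and 349 in siControl and 260.0, 186 and 264 in siPKCiz (-0.59 ± 0.15, adjusted p = 0.0255), with no overlap of the groups. VIM (vimentin) differed by 0.072 ± 0.11, and CDH2 (N-cadherin) by 0.056, 0.037 and -0.093 by replicate, neither called. MMP2, the gelatinase A gene, read 2260.3, 1986 and 2617 in siControl and 1971, 919.5 and 1278 in siPKCiz, by replicate -0.20, -1.11 and -1.03, and did not pass (adjusted p = 0.0935). Without replicate 1, 4 mesenchymal markers fell and none rose, beside 6.72% and 12.2% of all genes.

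Of 29 epithelial markers 3 rose and none fell, beside 3.52% and 1.90% of all genes. ELF3, an epithelial ETS transcription factor, read 701, 496 and 529 in siControl and 825, 966 and 1005 in siPKCiz and rose by 0.71 ± 0.15 log2 units (1.63-fold, adjusted p = 0.0121). DSP, the desmosomal protein desmoplakin, read 801, 680.4 and 773 in siControl and 1087, 1204 and 1054 in siPKCiz and rose by 0.57 ± 0.084 log2 units (1.49-fold, adjusted p = 7.83e-04). PKP2, the desmosomal plakophilin 2, read 271, 325 and 271 in siControl and 339, 418 and 426 in siPKCiz and rose by 0.45 ± 0.10 log2 units (1.36-fold, adjusted p = 0.0149). The groups of each gene did not overlap, and all replicates were positive. CDH1, which encodes E-cadherin, read 364, 312 and 337 in siControl and 469, 483 and 503 in siPKCiz and differed by 0.52 ± 0.17 (adjusted p = 0.081), not called, whereas it was called without replicate 1. EPCAM, an epithelial adhesion molecule, was level in replicate 1 and higher in the other replicates (-0.00051, 0.78 and 0.88), and CLDN4, a tight junction claudin, was lower in every replicate (-0.24, -0.70 and -0.55), neither called. The list median was 0.037, and 6 rose and 2 fell without replicate 1 (12.2% and 6.72% of all genes). No call of the mesenchymal or epithelial lists held without replicate 2 or without replicate 3.

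Of 33 matrix and protease genes 2 fell and none rose, beside 1.90% and 3.52% of all genes. In this list 27 lay below 0 (9504 of all 18377), with a median of -0.15. MMP9, the gelatinase B gene, read 166, 131 and 115 in siControl and 79.6, 97.7 and 90.8 in siPKCiz and differed by -0.61 ± 0.13 log2 units (1.52-fold lower, adjusted p = 0.012). PLAT, tissue plasminogen activator, read 1058, 626 and 759 in siControl and 550.3, 512 and 559 in siPKCiz and differed by -0.56 ± 0.14 log2 units (1.47-fold lower, adjusted p = 0.0299). For both the difference was largest in replicate 1 (-1.06, -0.42 and -0.34 and -0.94, -0.29 and -0.44), and MMP9 was not called without it. FN1 (fibronectin) differed by 0.29 ± 0.13, COL1A1 and COL4A1 by -0.26 ± 0.17 and -0.29 ± 0.19, and the membrane protease gene ADAM19 by -0.46 ± 0.16, none called. Without replicate 1, 9 genes of the list fell, beside 6.72% of all genes. Of 33 integrin and actin genes 1 rose and none fell, beside 3.52% and 1.90% of all genes. The riser was TLN1 (talin 1), with 1889, 1641 and 1861 in siControl and 2561, 2266 and 2119.9 in siPKCiz (0.36 ± 0.10, adjusted p = 0.0455). TLN1 was not called when replicate 1 was left out. In that fit 1 gene of the list rose and 5 fell, beside 12.2% and 6.72% of all genes. None of these 3 calls held without replicate 2 or without replicate 3.

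Of 22 NF-κB target genes and cytokines 3 fell and none rose, beside 1.90% and 3.52% of all genes. Besides IL1A these were CCL2, the monocyte chemoattractant, which read 5953, 6845 and 6525 in siControl and 4193, 2772 and 2827 in siPKCiz (-1.01 ± 0.18, adjusted p = 0.00346), and ICAM1, a leukocyte adhesion receptor, which read 176, 165 and 181 in siControl and 107, 125 and 133 in siPKCiz (-0.52 ± 0.12, adjusted p = 0.0192). Their groups did not overlap. CXCL8, the neutrophil chemokine interleukin-8, read 600.4, 544 and 966 in siControl and 309, 328 and 465 in siPKCiz and differed by -0.91 ± 0.29 (adjusted p = 0.0772), lower in each replicate but not called. This list was the one in which replicate 1 lay furthest below the others, with medians of -0.45, -0.041 and -0.068 by replicate. NFKBIA and TNFAIP3, feedback inhibitors of NF-κB, showed it, at -0.48, 0.20 and 0.067 and -0.91, 0.20 and -0.31. Without replicate 1, 1 rose and 3 fell (12.2% and 6.72% of all genes), ICAM1 no longer among them.

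Of 22 MAP kinase feedback and immediate early genes 2 fell, beside 1.90% of all genes. EGR1, an immediate early zinc finger factor, read 461, 685 and 649.5 in siControl and 277, 313 and 321 in siPKCiz and differed by -0.96 ± 0.26 log2 units (1.95-fold lower, adjusted p = 0.039). SPRY4, a feedback inhibitor of receptor tyrosine kinase signalling, read 1094, 1006 and 1169 in siControl and 636, 795 and 799 in siPKCiz and differed by -0.56 ± 0.14 log2 units (1.47-fold lower, adjusted p = 0.0278). Both were lower in every replicate without overlap of the groups, and the list median was -0.14. Of 25 YAP and TEAD target genes 2 rose and 2 fell (3.52% and 1.90% of all genes). ANKRD1, a cardiac ankyrin repeat protein, read 496, 572 and 534 in siControl and 631, 1138 and 1075 in siPKCiz (0.78 ± 0.21), and AJUBA, a LIM protein of cell junctions, read 474, 470.0 and 484 in siControl and 754, 883 and 684 in siPKCiz (0.69 ± 0.13), both higher. NT5E, which encodes the ecto-enzyme CD73, read 4249.6, 4321 and 4853 in siControl and 3285, 2587 and 2829.6 in siPKCiz (-0.63 ± 0.10), and with CCN1 made up the lower ones. Without replicate 1 the counts were 4 higher and 4 lower for the MAP kinase list and 3 higher and 6 lower for the YAP list, beside 12.2% higher and 6.72% lower over all genes. No call of these or of the NF-κB list held without replicate 2 or without replicate 3.

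In 3 lists of metabolism and stress most genes lay above 0, beside 8873 of all 18377, of which 3.52% rose and 1.90% fell. Of 19 NRF2 target genes, which encode antioxidant enzymes, 4 rose and none fell, with 17 above 0 and a median of 0.20. GCLM, a subunit of the enzyme that makes the glutathione precursor, read 1863, 1638 and 1684 in siControl and 2573, 2566 and 2375 in siPKCiz and rose by 0.54 ± 0.10 log2 units (1.45-fold, adjusted p = 0.00537). TXNRD1, thioredoxin reductase, read 3146, 3161 and 3133 in siControl and 3923, 4625 and 4119 in siPKCiz and rose by 0.42 ± 0.087 log2 units (1.34-fold, adjusted p = 0.00935), AKR1C2, an aldo-keto reductase, by 0.48 ± 0.10 (0.37, 0.52 and 0.56 by replicate), and SLC7A11, the cystine transporter, by 0.41 ± 0.12 (0.48, 0.34 and 0.40). All 4 were higher in each replicate, and the median of the list was no smaller in replicate 1 (0.29) than in replicates 2 and 3 (0.20 and 0.24). Of 22 stress and unfolded protein response genes 2 rose, SLC7A11 and PSAT1, an enzyme of serine synthesis (2492, 2354 and 2182 in siControl and 2856, 3369.9 and 3037 in siPKCiz; 0.40 ± 0.10), with 19 above 0 and a median of 0.21, which was 0.057 in replicate 1 and 0.30 and 0.32 in the others. All 14 sterol biosynthesis genes lay above 0 and 3 rose, ACAT2 (0.40 ± 0.084), MVD (0.37 ± 0.11) and INSIG1 (0.32 ± 0.090), the last a regulator that holds back the pathway. By replicate they differed by 0.15, 0.47 and 0.59, by 0.13, 0.42 and 0.58 and by 0.046, 0.45 and 0.45, least in replicate 1. With quantile normalization ACAT2, MVD and INSIG1 differed by 0.34, 0.31 and 0.27, and MVD and INSIG1 were no longer called. Medians and counts above 0 of these lists were not taken under that normalization, so their dependence on scaling was not tested. Without replicate 1, 7 rose and 1 fell among NRF2 targets, 9 and 1 among stress genes, and 5 and none among sterol genes, where 12.2% of all genes rose and 6.72% fell. None of these calls held without replicate 2 or without replicate 3.

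Of 36 cell cycle and replication genes 2 rose and none fell, beside 3.52% and 1.90% of all genes. In this list 29 genes lay above 0 (8873 of all 18377), with a median of 0.097. CDT1, a factor that licenses replication origins, read 223, 186 and 155 in siControl and 247, 272 and 254 in siPKCiz (0.47 ± 0.13), and MKI67, the proliferation marker Ki-67, read 2482, 2026 and 1919.6 in siControl and 3193, 2902 and 2613 in siPKCiz (0.44 ± 0.11). By replicate the medians of the list were -0.0016, 0.19 and 0.24, and 15 genes were higher without replicate 1, where 12.2% of all genes were. PCNA, the replication clamp, differed by 0.015, 0.40 and 0.39 and CCNB1, cyclin B1, by -0.17, 0.46 and 0.38. Of 17 p53 targets 1 rose and 1 fell, beside 3.52% and 1.90% of all genes, and 12 lay above 0. TP53INP1, a stress-induced protein of autophagy, read 702, 693 and 799 in siControl and 1125, 1029 and 1056 in siPKCiz and rose (0.55 ± 0.11). TNFRSF10B, a TRAIL death receptor, read 2991, 2622 and 2880.1 in siControl and 2137, 2213 and 2056 in siPKCiz and fell (-0.41 ± 0.11). Without replicate 1, 6 p53 targets rose and 3 fell (12.2% and 6.72% of all genes).

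Of 32 interferon response genes 2 rose and 1 fell, and the hypoxia and trafficking lists below had 2 and 1 called genes, beside 5.41% of all genes. OAS3, an oligoadenylate synthetase, read 524, 490.3 and 413 in siControl and 722, 791 and 778 in siPKCiz (0.69 ± 0.13), while its relative OASL went the other way, at 138, 112 and 102 in siControl and 72.6, 79.5 and 90.1 in siPKCiz (-0.54 ± 0.15), and IFI35 rose by 0.49 ± 0.13, by replicate 0.22, 0.64 and 0.60. Of 22 hypoxia and glycolysis genes SLC2A1, the glucose transporter GLUT1, read 2662, 2307 and 2379.6 in siControl and 4084, 3898 and 3896 in siPKCiz and rose by 0.69 ± 0.097 log2 units (1.62-fold, adjusted p = 4.74e-04), evenly by replicate (0.62, 0.76 and 0.71), and KDM3A, a histone demethylase, fell (1969.9, 1779 and 1949 in siControl and 1470.2, 1409 and 1522 in siPKCiz; -0.37 ± 0.082). Of 23 endocytosis and trafficking genes DAB2, a clathrin adaptor that also binds SMADs, rose, at 1070.1, 1173 and 1152 in siControl and 1669, 1928 and 1769.7 in siPKCiz (0.66 ± 0.12, adjusted p = 0.00439). The medians of the 3 lists were -0.0027, 0.061 and 0.16. Without replicate 1, 9 interferon genes rose and 2 fell, 4 hypoxia genes rose and 5 fell, and 6 trafficking genes rose, beside 12.2% of all genes higher and 6.72% lower. Of the calls in these lists and in the cell cycle and p53 lists, SLC2A1 alone held without replicate 2, and none held without replicate 3.

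**Figure D4:**
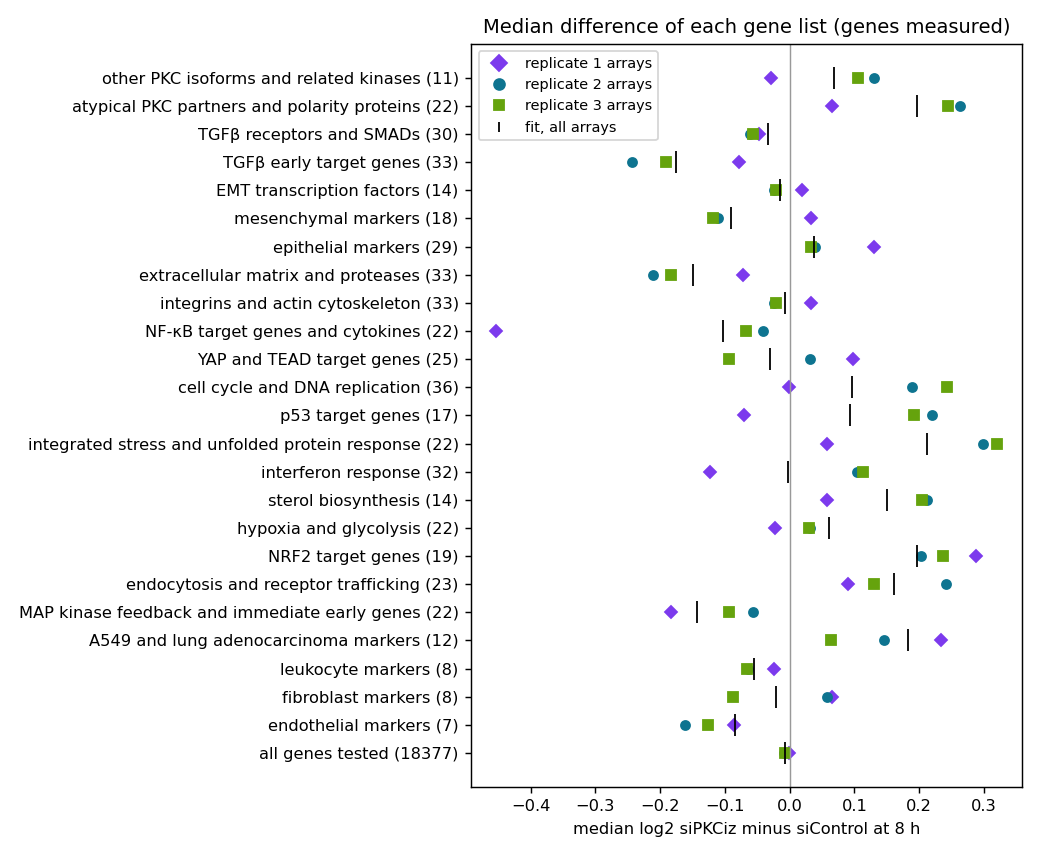
Median log2 difference of siPKCiz minus siControl at 8 h for each gene list, with the number of measured genes in brackets, as fitted over all arrays (bar) and in each replicate (symbols). Replicates 2 and 3 lie close together in most lists, and replicate 1 is nearer 0 for the early TGFβ targets, the polarity proteins and the cell cycle and far below for the NF-κB targets.

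The siRNA comparison without ligand and at 24 h shares no array with that at 8 h. All 3 take the spread of a gene from the same fit of all arrays, so their calls are not independent. The conditions may also share a transfection, which the labels do not give. Agreement between them need not be that of separate transfections. Without ligand 657 genes were called (3.58%) and at 24 h 587 (3.19%). Of the 995 genes called at 8 h, 374 were called in the same direction without ligand (37.6% of the 995, 56.9% of the 657) and 342 at 24 h (34.4% and 58.3%), and none was called in the opposite direction. Signs were shared by 963 and 955 of the 995, beside 73.4% and 66.9% of all genes. In all 3 conditions 254 were called, 140 higher and 114 lower, and 533 were called at 8 h alone. Without replicates 1, 2 and 3 in turn the counts were 1513, 30 and 27 without ligand and 2078, 18 and 20 at 24 h.

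CNN2 rose by 1.73 ± 0.11 without ligand and 1.67 ± 0.11 at 24 h, FOXN3 by 1.60 ± 0.079 and 1.45 ± 0.079, and CTSH by 1.14 ± 0.097 and 0.99 ± 0.097. PRKCI differed by -2.17 ± 0.091 and -2.34 ± 0.091, PRKCZ by -1.07 ± 0.24 and -1.10 ± 0.24, and SLC4A8 by -1.19 ± 0.12 and -1.05 ± 0.12. These genes changed in all 3 conditions. TGFBR2 differed by -0.80 ± 0.11 and -0.68 ± 0.11, SMURF2 by -0.63 ± 0.11 and -0.58 ± 0.11, and ACVR2B by -0.63 ± 0.093 and -0.76 ± 0.093, all called. ODAPH, by contrast, differed by -0.10 ± 0.46 without ligand and by -1.21 ± 0.46 at 24 h, TMEM88 by -0.19 ± 0.35 and -0.59 ± 0.35, SPHK1 by -0.14 ± 0.21 and -0.49 ± 0.21, and CCN1 by -0.086 ± 0.22 and -0.65 ± 0.22, none of them called in either condition. IL1A differed by -0.32 ± 0.35 without ligand, not called, and by -1.51 ± 0.35 at 24 h, called. IL11, an early target whose ligand change was alike in both arms, was lower in siPKCiz without ligand as well as at 8 h. The early target list had 1 gene lower without ligand and 1 higher and 1 lower at 24 h, with medians of -0.067 and -0.070.

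**Figure D5:**
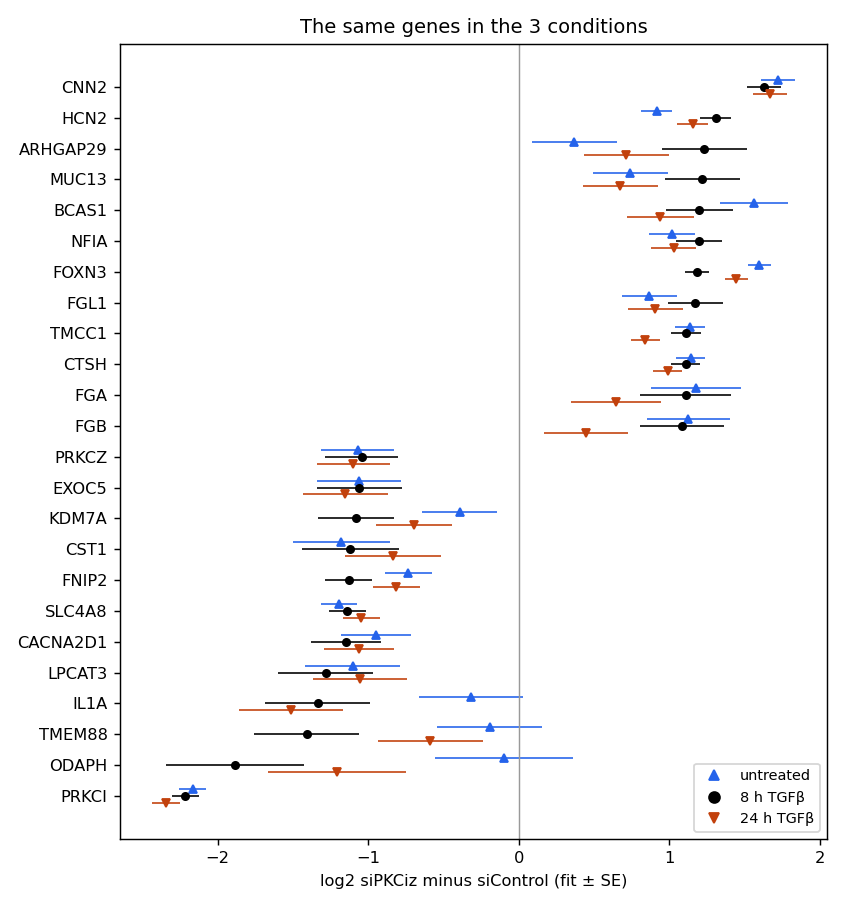
Fitted log2 difference of siPKCiz minus siControl with its SE for the 12 highest and 12 lowest genes at 8 h, without ligand, at 8 h and at 24 h of TGFβ. CNN2, CTSH, SLC4A8 and PRKCI lie close together in the 3 conditions, FOXN3 is smallest at 8 h, and ODAPH and TMEM88 are near 0 without ligand.

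Whether the difference at 8 h departs from that of another condition was tested directly. With all arrays, limma called 0 genes against the difference without ligand (625 at an unadjusted p under 0.05, smallest adjusted p = 0.9997) and 0 against that at 24 h (822, smallest adjusted p = 0.998), so no gene, ODAPH included, is shown to differ by condition in this fit. Without replicate 1 the counts were 58 (29 in each direction) and 5, and without replicate 2 or replicate 3 both were 0. The following values, from replicates 2 and 3, were chosen after they were seen. The ODAPH difference at 8 h minus that without ligand was -2.04 ± 0.16 (adjusted p = 1.97e-05). For RASGRP3, a Ras family exchange factor, it was -1.94 ± 0.16, for TMEM88 -1.27 ± 0.20, for VEGFA -1.03 ± 0.15 and for IL1A -1.03 ± 0.17. In the other direction it was 1.13 ± 0.20 for ARHGAP29 and 1.12 ± 0.21 for PDK4, an inhibitory kinase of pyruvate dehydrogenase. At 8 h RASGRP3 read 1239, 977 and 994 in siControl and 703, 345 and 432 in siPKCiz, and PDK4 read 459.6, 350.0 and 469 in siControl and 458, 823 and 1102 in siPKCiz, so that the silenced array of replicate 1 lay toward the control in both. The 5 genes of the comparison with 24 h were LCE3E, TNFAIP6, HS3ST3B1, SLC6A13 and IGFBP5.

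The siRNA difference of replicate 1 minus that of replicates 2 and 3 was fitted over the 3 conditions in limma, with 6 group means, additive terms for the replicate number and a term for siPKCiz in replicate 1. Replicate 1 had already been seen to stand apart on these arrays, and the conditions, which may share a transfection, take the place of repeats. These contrasts are therefore given as a description. The genes named are the 5 highest and 5 lowest among those with an adjusted p under 0.05 in this fit. That limit served only to choose them. Highest were TNFAIP6, a secreted hyaluronan-binding protein, and ITGB6, an integrin subunit of epithelia that activates latent TGFβ. At 8 h TNFAIP6 read 1898, 2810.5 and 2918 in siControl and 1524, 696 and 733 in siPKCiz, and its contrast was 1.95. ITGB6 read 899.6, 943 and 1100.5 in siControl and 1051, 435 and 562 in siPKCiz, higher in siPKCiz in replicate 1 and lower in the others, with a contrast of 1.95. Both were higher in siControl at 8 h of TGFβ than untreated, by 3.56 ± 0.45 and 1.33 ± 0.42, and neither was called in the siRNA comparison at 8 h with all arrays (0.068 and 0.426 as adjusted p).

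ODAPH, RIMOC1 and LPCAT3 completed the highest 5, with contrasts of 1.66, 1.64 and 1.56. RIMOC1, a regulator of mitophagy, read 2185, 4268 and 3855 in siControl and 2309.7, 1295 and 1225 in siPKCiz, and as for LPCAT3 its replicate 1 arrays lay together, between the control and the silenced arrays of replicates 2 and 3. Lowest were EMP1, an epithelial membrane protein (652, 507 and 436 in siControl and 656, 1373 and 1209 in siPKCiz; contrast -1.68), DIO2, a deiodinase that activates thyroid hormone (147, 78.5 and 84.2 in siControl and 161, 301 and 250.2 in siPKCiz; -1.57), the peptide hormone gene SPX (-1.45), the transcription factor SOX2 (242, 209.7 and 219 in siControl and 175, 314 and 474 in siPKCiz; -1.44) and FGA (-1.41). EMP1 and DIO2 were higher in siPKCiz in replicates 2 and 3 and nearly level in replicate 1, and SOX2 was lower in replicate 1 and higher in the others. The contrast was -0.17 for PRKCI and 1.13 for PRKCZ.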

How the data were processed

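RNA of A549 cells was measured on 18 Affymetrix whole-transcript arrays, 6 groups of 3 biological replicates, of which 6 arrays make the main comparison. Per the labels' protocols 200 ng of total RNA was labelled per array. The submitters' processing notes name RMA and Partek, with versions not given in the sources used here, and the values the authors deposited are RMA intensity on a linear scale. Log2 was taken once, with no further normalization and no array left out. Of 28869 probe sets, 19310 had 1 gene symbol in the platform annotation, 1752 had several and 7807 had none listed. Only the first kind was tested, the brightest per gene, which left out 933 and gave 18377 genes. Of these probe sets 19279 matched a RefSeq gene, with 0 symbols changed.

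The model, in limma 3.58.1 under R 4.3.3, had 6 group means over 18 arrays for every gene (12 residual and 18.1 total degrees of freedom), with Benjamini-Hochberg adjustment over all genes and calls at 0.05. The fit was run on simulated data with independent noise on each array and no replicate structure. It recovered 95.5% of added siRNA differences of 1 log2 unit at 8 h, with 8 false calls. With no replicate structure, the simulation could not check how a replicate that stands apart affects the calls. The named genes were PRKCI, PRKCZ, the markers, the 12 highest and 12 lowest called genes whose groups did not overlap, up to 4 called members of each of 25 lists (477 of 509 genes measured) and the 5 highest and 5 lowest called genes of the other contrasts. Other genes were named after their values were seen, as being known members of a list or examples of a pattern. The comparison, the members and the lists were chosen with earlier results of these data known. The replicate numbers were checked for pairing: at 8 h the deviations of same-numbered arrays from their group means correlated at -0.28, 0.053 and -0.037, so the main fit has no replicate term. Alternatives were the replicate as a block, array weights, trended and robust moderation, centring on the median, quantile normalization, a filter on dim genes, fewer arrays, all probe sets, a fold threshold, and fits without single arrays or replicate numbers.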

Additional observations from a re-analysis of the deposited data

Results flagged for a closer look

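Probe sets outside the comparison also carried calls in the fit at 8 h: 30 of those with several gene symbols (1.71% of 1752) and 103 of those with no symbol listed (1.32% of 7807). They are given as counts only, since none could be assigned to 1 gene.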

How the results depend on the processing

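At 8 h, 995 genes were called, and between 681 and 1048 with only the 6 arrays, all probe sets, a filter on dim genes, trended and robust moderation, median centring, or quantile normalization. Array weights gave 2929, with weights of 0.41 and 0.54 for the replicate 1 arrays and 1.03 to 1.66 for the other 4, and a fold change of at least 1.5 gave 237. With the replicate number as a block, 616 genes were called at 8 h and 380 at 24 h. Same-numbered deviations correlated between -0.51 and 0.26, and 0 of 18 arrays correlated best with their own number, which did not meet the level set for pairing and does not show that arrays of a number share nothing. Leaving out a replicate number gave 24 to 3486 genes at 8 h, 27 to 1513 without ligand and 18 to 2078 at 24 h, 0 to 58 for the difference from no ligand and 0 to 5 for that from 24 h. Leaving out 1 array of the comparison gave 363 to 1271. The share of calls that were higher was 64.9%, 56.5% with quantile normalization and 73.4% with centring. Of 113 named genes, 73 of them called, none reversed under any alternative run, 18 calls were lost with the block (FGA, FGB, IL1A, EXOC5, EGR1, ANKRD1, CDT1, OASL, IFI35, TNFRSF10B, TLN1, PRKD2, PRKD3, SLC7A11, PSAT1, MVD, INSIG1 and TEK), 5 without replicate 1, 65 without replicate 2 and 66 without replicate 3. Only 3 arrays per group limit the precision, and a probe set near or under the array median, such as PARD6A or MMP9, gives a less certain fold.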
